A study of Mus musculus with 12 samples.

Results

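The BCL2 family decides whether the mitochondria of a cell release the factors that start apoptosis. In liver, where bile acids and death receptor ligands can push hepatocytes and bile duct cells towards apoptosis, its members are usually sorted into anti-apoptotic guardians, pore-forming effectors and BH3-only proteins, which sense stress and bind the guardians or the effectors. The 10 genes described here were 5 BH3-only genes (Bmf, Bcl2l11, Bbc3, Pmaip1 and Bid), the effectors Bax and Bak1, and the anti-apoptotic genes Bcl2, Bcl2l1 and Mcl1. Every gene probe whose name in the scanner files was one of these was taken, which gave 20 probes of 41174 on the array and 10 of its 27962 gene names. Of these, 17 were bright enough to be tested, with at least 1 probe for each of the 10 genes, among 21693 tested probes in all.

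The RNA came from livers of Abcb4(-/-) mice, which lack the transporter through which hepatocytes secrete phospholipid into bile, and of Abcb4(+/+) mice. The knockout mice were fed cholic acid (CA) or ursodeoxycholic acid (UDCA), and the labels give 9 weeks. Knockout and wild type lay on the same 2-colour array in different dyes, with 6 arrays from 5 livers per diet, so that 1 array of each diet repeated a liver in the opposite dye and could not be identified. What the wild-type mice were fed, the doses, the strain, sex and age are not stated in the sources used here, the knockout is in every cell of the body rather than in 1 cell type, and no knockout mice on a control diet were analysed here, so that genotype and diet cannot be told apart within either comparison with wild type.

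Unless a level is named, a value is the log2 ratio of knockout to wild-type RNA within an array. A difference was called where the limma fit over all tested probes gave it an adjusted p below 0.05. The Abcb4 probe A_52_P223194 was lower in the knockout on 12 of 12 arrays (-3.74 to -1.20), and the other, A_51_P249118, on 10. The comparison with wild type called many probes on this platform, 59.6% of all tested probes in CA-fed knockout liver (57.4% of the calls higher) and 23.5% in UDCA-fed knockout liver (64.2% higher). The difference between the diets, CA minus UDCA, called 26.9% (61.0% higher). With arrays centred on their median instead of loess, 80.4%, 94.4% and 84.6% of the calls were higher. The cell type markers moved as well. All 8 cholangiocyte markers were called higher in CA and 5 of 8 in UDCA, with 7 of 8 higher in CA than in UDCA. Their summed level, a log2 intensity, was 15.5 to 17.3 in CA-fed knockout RNA and 14.0 to 15.1 in UDCA-fed knockout RNA, against 12.9 to 15.3 and 12.7 to 12.9 in the wild-type RNA of the same arrays. Stellate and fibroblast markers were higher for 8 of 8 in CA and 7 of 8 in UDCA, macrophage markers for 5 of 8 in both with 2 and 1 lower, and cell division genes for 8 and 7 of 8. Lymphocyte markers were higher for 4 and 2 of the 5 tested, with 1 lower in CA, the T cell gene Cd3e (-0.32, adjusted p = 0.012). Of 8 endothelial markers 2 were higher and 2 lower in CA and 1 lower in UDCA. Of 8 hepatocyte markers 2 were lower in each diet, but their median ratio on an array followed the dye: it was 1.89 to 2.14 on the 3 CA arrays with the knockout RNA in Cy5 and -2.70 to -2.17 on the 3 with it in Cy3, and 1.59 to 2.25 and -3.56 to -0.57 on the UDCA arrays. No level of hepatocyte RNA is read from them. On the CA arrays the medians of 3 other lists also lay higher with the knockout RNA in Cy5 than in Cy3, without overlap but above 0 in both. They were 3.22 to 3.93 and 1.72 to 2.56 for cholangiocyte markers and 2.62 to 3.55 and 1.21 to 2.46 for stellate and fibroblast markers. For macrophage markers they were 1.90 to 2.48 and 0.41 to 1.60. The sizes of these ratios on single arrays thus carry the dye. In whole liver RNA, fewer cells of a type and less RNA per cell cannot be told apart, and the part of these cell types in the values below was not tested.

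Of the 17 tested probes, 4 designed 60-base probes that lie in the coding part of their genes, from the known proteins, are shown with positions in mm7 from the scanner files. Those of Bmf, Bcl2 and Bak1 are the probes that another probe of the same gene is set against below, and Bax had 1 probe. All 4 lie on the minus strand. They are given 5′ to 3′ with no letters marked.
Bmf A_51_P482239, chr2:118273425-118273484: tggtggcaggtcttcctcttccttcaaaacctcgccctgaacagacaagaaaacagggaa
Bcl2 A_51_P380013, chr1:106612249-106612308: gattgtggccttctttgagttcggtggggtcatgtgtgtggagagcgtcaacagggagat
Bak1 A_52_P225207, chr17:25205887-25205946: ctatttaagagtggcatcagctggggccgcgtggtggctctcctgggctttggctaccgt
Bax A_51_P254541, chr7:41641827-41641982: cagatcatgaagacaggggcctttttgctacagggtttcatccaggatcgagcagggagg
The Bax probe of 60 bases covers 156 bases of the genome, so that it crosses an exon junction. The second tested Bmf probe, A_52_P384394 (chr2:118269632-118269691), starts 3793 bases further along the gene in the direction of transcription. It is called distal and A_51_P482239 proximal below. The position of the distal probe relative to the exons of Bmf was not analysed here.

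In CA-fed knockout liver 13 of the 17 probes were called, 11 higher and 2 lower, which is 76.5% beside 59.6% of all tested probes (34.2% higher and 25.4% lower). In UDCA-fed knockout liver 7 were called, 5 higher and 2 lower, which is 41.2% beside 23.5% (15.1% higher and 8.41% lower); without UDCA array 3, 4 were called. In the difference between the diets 7 probes were called, all higher in CA, beside 26.9% of all probes in either direction and 16.4% in this one (10.5% in the other); 3 were called with arrays centred on the median and 4 with slide as a fixed block. A set of 3 probes, Bcl2 A_52_P438280 and 2 of Bcl2l1, passed the filter on dim probes through the CA-fed knockout RNA alone, and the first of them is 1 of the 7. Of the other 14 probes, 6 had a called difference. Pmaip1 A_51_P477121 and Bcl2 A_52_P534870 passed this filter through the knockout RNA of both diets and not through wild-type RNA. Their higher calls against wild type, counted above, are therefore not independent of the filter. The median ratio of the 17 probes was 0.64 in CA, 0.13 in UDCA and 0.34 for the difference, against 0.05, 0.03 and 0.03 over all tested probes. By role, the difference was called for 4 of 6 BH3-only probes, 3 of 8 anti-apoptotic probes (A_52_P438280 among them) and, by limma, 0 of 3 effector probes, of which 1 had an unadjusted p under 0.05. The 7 called differences kept their sign within slide 3 and within slide 4, the 2 slides that held arrays of both diets, each with 1 CA array, which on slide 3 was array 5.

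**Figure D1:**
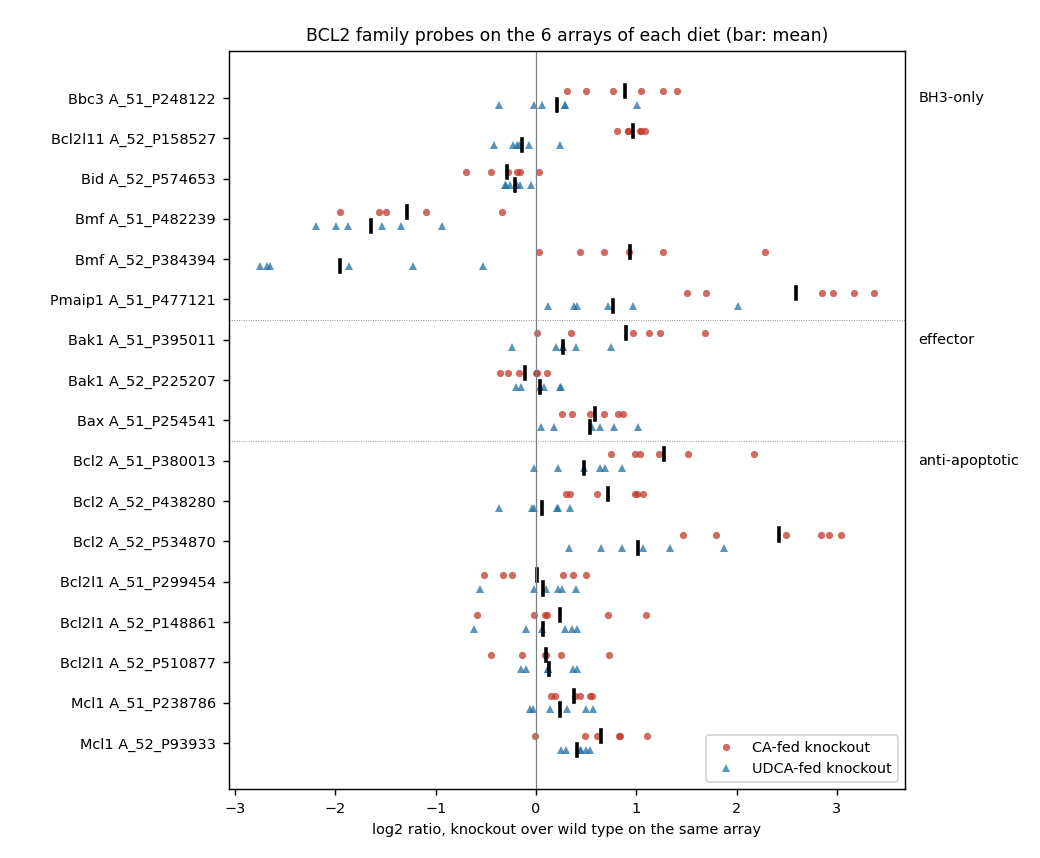
Log2 ratio of knockout over wild type (x axis) of the 17 tested probes on the 6 CA arrays (circles) and 6 UDCA arrays (triangles), grouped by role, with the mean as a bar; Bmf A_51_P482239 has 5 CA values. The CA and UDCA values of Bmf A_52_P384394 and Bcl2l11 A_52_P158527 do not overlap.

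Bmf, whose protein is held on the cytoskeleton and released to bind BCL2 guardians, gave the largest difference between the diets among the 17 probes. The distal probe was higher in knockout than in wild type on every CA array (lowest 0.03, median 0.80, highest 2.28) and lower on every UDCA array (lowest -2.76, median -2.26, highest -0.53). The arrays of the diets therefore did not overlap, as for 2 of the 17 probes and for 9.86% of all tested probes. The fitted ratio was 0.94 ± 0.29 (SE) in CA, with an adjusted p of 0.012, and -1.95 ± 0.29 in UDCA, with an adjusted p of 0.00016, a 3.88-fold lower level. The difference was 2.89 (95% interval 2.02 to 3.77, adjusted p = 0.00023), or 7.43-fold. Within slide 3 it was 4.76 and within slide 4 it was 2.28, each from 1 CA array. With slide as a fixed block the CA ratio was 1.55. The CA value leaned on array 5: without it the ratio was 0.67, with an adjusted p of 0.064.

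The levels of the distal probe in both RNAs bear on this difference. The distal probe's level (log2 intensity) was 11.6 ± 0.65 (SD, n = 6) in CA-fed and 9.60 ± 0.39 (n = 6) in UDCA-fed knockout RNA. In the wild-type RNA of the same arrays it was 10.6 ± 0.71 and 11.6 ± 0.90. The wild-type level was thus lower on the CA arrays than on the UDCA arrays, with ranges that overlapped (9.61 to 11.7 and 10.3 to 12.6).

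The proximal Bmf probe was lower in both diets. Its CA ratios ran from -1.95 through a median of -1.49 to -0.34 over 5 arrays, the value of array 1 being marked as an outlier by the scanner software and left out. On that array its levels were nearly equal, 10.26 in knockout and 10.29 in wild-type RNA. The CA call was kept in all 23 other settings (-3.14 to -1.07), of which 1 kept the marked values. The gap between the probes given below leaves this array out as well. The UDCA ratios of the proximal probe ran from -2.19 through -1.70 to -0.94 over 6 arrays. The fitted ratios were -1.30 ± 0.21 (adjusted p = 0.00011) and -1.65 ± 0.19 (adjusted p = 2.2e-05), both called. Their size followed the background correction, since the processed signals of the scanner software gave -3.14 and -3.16, so that no fold is given. The difference of 0.34 was not called (95% interval -0.27 to 0.95, adjusted p = 0.40). The 2 Bmf probes thus had opposite signs in CA and the same sign in UDCA. On the same array, the distal ratio exceeded the proximal one by 2.23 ± 1.44 (SD, n = 5) in CA, while in UDCA the gap was -0.31 ± 1.06 (n = 6). These gaps follow the background correction too, since with processed signals the fitted distal ratios were 0.86 in CA and -2.32 in UDCA. The gap differed between the diets with a 2-sided exact permutation p of 0.011, against a smallest possible p of 0.0022; this comparison was chosen after the values were seen. Another Bmf probe between them, A_52_P78830, was too dim to be tested, with ratios from -0.80 to 0.01 in CA and from -0.37 to 0.23 in UDCA.

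**Figure D2:**
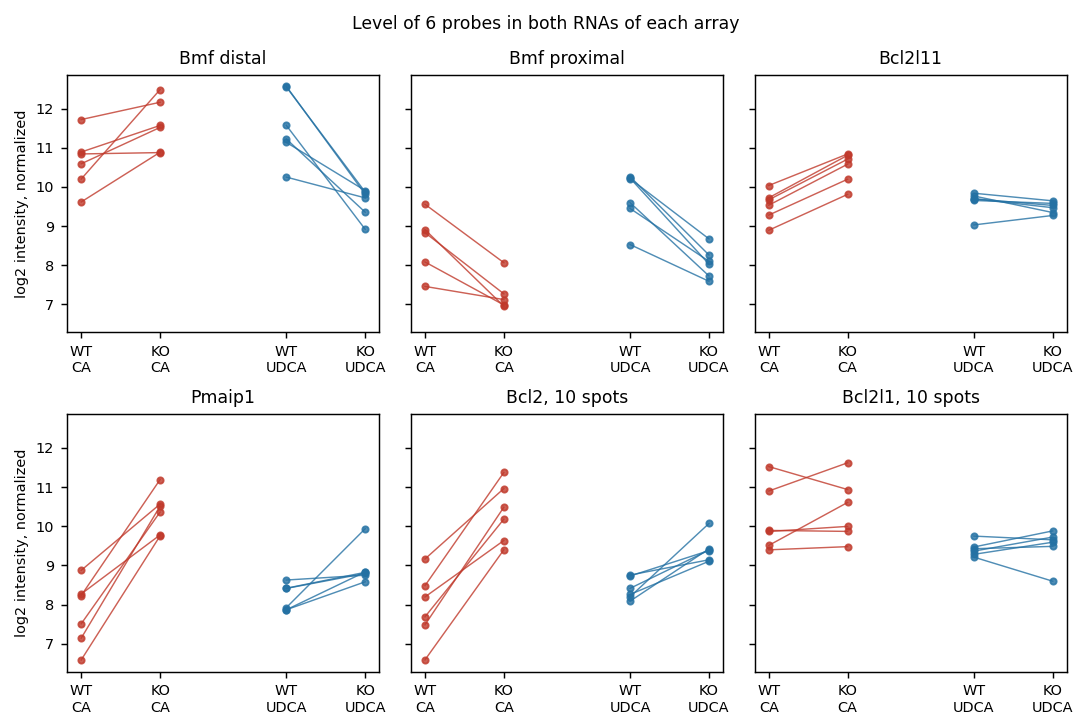
Log2 intensity after normalization (y axis) of 6 probes in the wild-type (WT) and knockout (KO) RNA of each array, with a line joining the RNAs of 1 array, CA in red and UDCA in blue; the value left out of the fit for proximal Bmf is not drawn. Lines of distal Bmf rise on CA arrays and fall on UDCA arrays, while those of proximal Bmf fall in both.

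Bcl2l11 encodes BIM, a BH3-only protein that binds all the guardians and can engage the effectors. Its tested probe, A_52_P158527, had CA ratios within a narrow range (lowest 0.81, median 0.98, highest 1.09) and UDCA ratios around 0 (lowest -0.42, median -0.18, highest 0.24). As for distal Bmf, the arrays did not overlap. The fitted ratio was 0.97 ± 0.10 in CA (adjusted p = 6.2e-07), a 1.96-fold higher level, and -0.14 ± 0.10 in UDCA (adjusted p = 0.33). The difference was 1.11 (95% interval 0.82 to 1.40, adjusted p = 8.0e-05), with 1.25 and 0.92 within slides 3 and 4. It stayed at 1.16 with arrays centred on the median, but with an adjusted p of 0.14. The 2 other Bcl2l11 probes, A_51_P484880 and A_52_P348214, were well above background in at most 3 of 6 arrays of any RNA and were not tested.

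Pmaip1 encodes NOXA, a BH3-only protein that binds MCL1, and had the highest CA ratio of the 17 probes. Its probe A_51_P477121 ran from 1.51 through a median of 2.91 to 3.37 in CA and from 0.12 through 0.56 to 2.02 in UDCA. The fitted ratio of 2.59 ± 0.24 in CA (adjusted p = 3.4e-07) and that of 0.77 ± 0.24 in UDCA (adjusted p = 0.032) are given with no fold, because the wild-type RNA was well above background on 4 of 6 CA arrays and 3 of 6 UDCA arrays. The probe thus passed the filter on dim probes through the knockout RNA alone, the side on which it was high. With processed signals the ratios were 3.84 and 1.68. The difference of 1.82 was called (95% interval 1.09 to 2.56, adjusted p = 0.0015). A single UDCA array, 6, lay among the CA values at 2.02, and without it the UDCA ratio was 0.44 with an adjusted p of 0.11. That array was the only one on slide 5, so that its slide cannot be told apart from its liver. Its median ratio of the cholangiocyte markers was 2.39, against 0.47 to 1.15 on the other UDCA arrays and 1.72 to 3.93 on the CA arrays. On the 3 CA arrays with the knockout RNA in Cy3, as on this UDCA array, the median was 1.72 to 2.56. The part of these markers in the Pmaip1 value was not tested. The UDCA call was also lost without array 3 (0.78) or array 5 (0.80), without background correction (0.61) and with no dye term (0.77), while its adjusted p was 0.00015 with processed signals and 0.0030 with arrays centred on the median (1.13).

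Bbc3 encodes PUMA, a BH3-only protein known as a p53 target. Its probe A_51_P248122 (chr7:14080459-14080518) ran from 0.31 through 0.91 to 1.41 in CA and from -0.36 through 0.18 to 1.01 in UDCA. The CA ratio of 0.88 ± 0.16 was called (adjusted p = 0.00022), and the UDCA ratio of 0.21 ± 0.16 was not (adjusted p = 0.38). The difference of 0.67 had an adjusted p of 0.038 and lost its call in 14 of 24 other settings, with values between 0.46 and 0.82. With the replicate number as a block the adjusted p was 0.070. The Bbc3 level (log2 intensity) was 13.1 ± 0.60 (SD) in CA-fed and 13.0 ± 0.52 in UDCA-fed knockout RNA. In the wild-type RNA of the same arrays it was 12.2 ± 0.57 and 12.8 ± 0.48. The knockout levels were thus close, and the wild-type level was lower on the CA arrays, with ranges that overlapped (11.6 to 12.9 and 12.3 to 13.4). Bid, which caspase 8 cleaves to link death receptors to mitochondria, had one probe, A_52_P574653 (chr6:120918747-120918806). Its ratio was -0.29 ± 0.10 in CA (adjusted p = 0.020) and -0.21 ± 0.10 in UDCA (adjusted p = 0.14), but with arrays centred on the median the CA value turned to 0.0498, and its call was lost without CA array 3 (-0.21) or 5 (-0.24) and with slide as a fixed block (-0.34). With processed signals the CA ratio was -0.45, and the UDCA ratio was called at -0.38 (adjusted p = 0.030), as it was with the series table at -0.30 (adjusted p = 0.042). The Bid difference between the diets was -0.08 (95% interval -0.38 to 0.22).

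Both effectors make pores in the outer mitochondrial membrane. Bax was higher in both diets. Its probe, printed in 10 spots per array, ran from 0.26 through 0.60 to 0.86 in CA and from 0.05 through 0.60 to 1.01 in UDCA. The fitted ratios were 0.59 ± 0.10 (adjusted p = 0.00013) and 0.54 ± 0.10 (adjusted p = 0.00098), or 1.50-fold and 1.45-fold. The difference was 0.05 (95% interval -0.25 to 0.35), an interval that holds differences of up to 0.35 in favour of CA. Neither Bax call was kept with arrays centred on the median, where the ratios were 0.954 and 0.9997 with adjusted p of 0.060 and 0.11. Bax also had a called dye effect (-0.22), as did Bcl2l1 A_52_P148861 (0.35). These were 2 of the 17 tested member probes, beside 2793 of all 21693 tested probes. Both diets held 3 arrays in each dye orientation.

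The 2 Bak1 probes disagreed in CA. A_51_P395011, which starts 1153 bases downstream of the other, ran from 0.01 through 1.05 to 1.69 in CA and had a ratio of 0.90 ± 0.18 (adjusted p = 0.00057). The coding probe A_52_P225207 shown above ran from -0.36 through -0.08 to 0.11 and had a ratio of -0.11 ± 0.10 (adjusted p = 0.33). In UDCA neither was called, at 0.27 ± 0.18 and 0.04 ± 0.10. The difference between the diets for the downstream probe was 0.62 (95% interval 0.08 to 1.17, adjusted p = 0.083). It passed the threshold without CA array 3 (0.82), without CA array 4 (0.75) and with slide as a random block (0.69).

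Among the anti-apoptotic genes, Bcl2 was higher in CA at the probes A_52_P534870 and A_51_P380013. Its remaining probe, A_52_P438280, was higher too, but passed the filter on dim probes through the CA-fed knockout RNA alone and adds no support. The probe A_52_P534870, printed in 10 spots and the farthest downstream, ran from 1.47 through 2.67 to 3.04 in CA and from 0.33 through 0.97 to 1.87 in UDCA. Every array of both diets lay above 0, and the highest UDCA array, array 6, lay above the lowest 2 CA arrays. The fitted ratios were 2.43 ± 0.20 (adjusted p = 8.3e-08) and 1.02 ± 0.20 (adjusted p = 0.0015), with no fold given, because the wild-type RNA was well above background on 4 of 6 arrays of each diet. With processed signals they were 3.30 and 1.83. This probe, too, passed the filter on dim probes through the knockout RNA alone, in both diets. The difference was 1.41 (95% interval 0.81 to 2.01, adjusted p = 0.0022), with 2.39 and 1.17 within slides 3 and 4. The SD over the 10 spots of one array had a median of 0.11, so that the spread between arrays was much wider than that between spots.

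The coding Bcl2 probe A_51_P380013 was higher by 1.28 ± 0.15 in CA (range 0.75 to 2.17, adjusted p = 3.6e-06) and by 0.48 ± 0.15 in UDCA (range -0.02 to 0.85, adjusted p = 0.032). Its difference of 0.80 had an adjusted p of 0.012. The UDCA call was lost without array 1, 3, 4, 5 or 6, at ratios from 0.36 to 0.50, without background correction (0.29) and with no dye term (0.48), and was kept with processed signals (1.28, adjusted p = 0.0012) and with arrays centred on the median (0.79, adjusted p = 0.0495). With processed signals the CA ratio of this probe was 1.96. The remaining Bcl2 probe, A_52_P438280, ran from 0.30 to 1.06 in CA and from -0.37 to 0.33 in UDCA. The wild-type RNA was not well above background at this probe on any array, so its CA ratio is a bound, at least 1.64-fold (adjusted p = 7.4e-05), and no fold is given for UDCA, where the knockout RNA was above background on 1 of 6 arrays. Without background correction its difference of 0.66 was 0.43, and with processed signals it was 2.35. The Bcl2 difference at the coding and remaining probes lost its call with slide as a fixed block (0.64 and 0.45, adjusted p of 0.28 and 0.33) and with arrays centred on the median (0.81 and 0.67, adjusted p of 0.24 and 0.20), and at the coding probe with processed signals (0.68, adjusted p = 0.16).

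Bcl2l1, which encodes BCL-XL, the guardian on which adult hepatocytes are known to depend together with MCL1, was not called at any of its 3 probes in any of the 3 comparisons by limma, and 0 of these 9 tests had an unadjusted p under 0.05. The 10-spot probe A_52_P148861 ran from -0.59 through 0.10 to 1.10 in CA and from -0.61 through 0.18 to 0.41 in UDCA. Its ratios were 0.23 ± 0.13 (adjusted p = 0.14) and 0.07 ± 0.13 (adjusted p = 0.77), with a difference of 0.17 (95% interval -0.24 to 0.57). Without CA array 3 or 4 its CA ratio was 0.34, with adjusted p of 0.047 and 0.046. The other probes, A_51_P299454 and A_52_P510877, had CA ratios of 0.01 ± 0.14 and 0.10 ± 0.13 and UDCA ratios of 0.07 ± 0.14 and 0.13 ± 0.13. At both, the RNA was well above background on 5 (knockout) and 4 (wild type) of 6 CA arrays but on 2 and 1 of 6 UDCA arrays, so that their UDCA values and differences lie near background.

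Mcl1, a short-lived guardian, was higher in CA at both probes. A_52_P93933 ran from -0.01 through 0.72 to 1.11 in CA and from 0.25 through 0.45 to 0.53 in UDCA, with ratios of 0.64 ± 0.12 (adjusted p = 0.00034) and 0.41 ± 0.12 (adjusted p = 0.023). A_51_P238786 was saturated on 8 arrays and had 0.38 ± 0.11 (adjusted p = 0.0066) and 0.24 ± 0.11 (adjusted p = 0.12). The Mcl1 differences between the diets were 0.23 (95% interval -0.14 to 0.60) and 0.14 (-0.18 to 0.46) and were not called. With arrays centred on the median neither probe kept its CA call, at 0.89 and 0.51, and the CA ratio of A_51_P238786 was 0.76 with the series table. The UDCA call of A_52_P93933 was also lost without UDCA array 1, 2 or 3, at ratios from 0.38 to 0.40, with processed signals (0.36), with slide as a fixed block (0.28) and with arrays centred on the median (0.85).

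**Figure D3:**
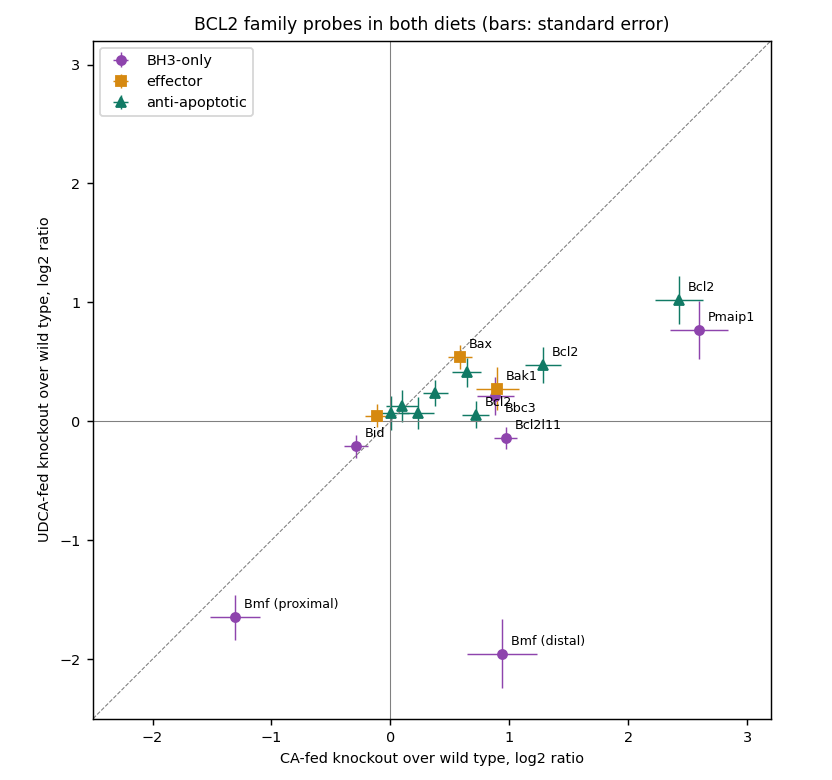
Fitted log2 ratio of knockout over wild type in UDCA (y axis) against CA (x axis) for the 17 tested probes, by role, with standard errors as bars and a dashed line of equal ratios. Distal Bmf lies at 0.94 and -1.95, and Bax lies near the line of equal ratios at 0.59 and 0.54.

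Where a gene had several tested probes, they were set in the order of transcription. The probe farthest downstream had a higher CA ratio than the first for Bmf (0.94 against -1.30), Bcl2 (2.43 against 1.28), Bak1 (0.90 against -0.11) and Bcl2l1 (0.23 against 0.01), and a lower one for Mcl1 (0.38 against 0.64), whose downstream probe was saturated on 8 arrays. In UDCA the downstream ratio was higher for Bcl2 (1.02 against 0.48) and Bak1 (0.27 against 0.04), lower for Bmf (-1.95 against -1.65) and Mcl1 (0.24 against 0.41), and 0.07 at both probes of Bcl2l1. The Bmf order in UDCA turned with processed signals (-2.32 against -3.16). With arrays centred on the median the Bmf ratios were nearly equal (-1.593 against -1.585). The downstream probe was also the brighter of the 2 in all 5 genes. These orders are a description of 5 genes with no test, and the part of brightness in them was not tested.

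**Figure D4:**
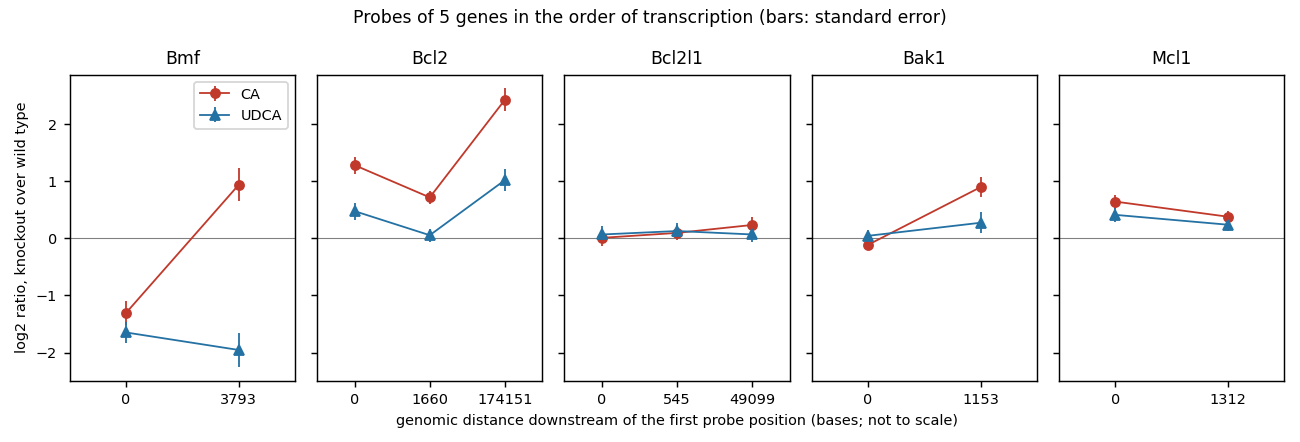
Fitted log2 ratio of knockout over wild type (y axis) at each tested probe of 5 genes, ordered along the gene and labelled with the distance in bases from the first probe (not to scale), CA circles and UDCA triangles, bars standard errors. In Bmf the CA ratio is -1.30 at the first probe and 0.94 at the second, while the UDCA ratio is -1.65 and -1.95.

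Promoters were read because BH3-only genes are known targets of the transcription factors p53 and FOXO. The windows came from RefSeq for GRCm38.p6 and ran from 250 bases before to 50 after a gene's start. For 9 of the 10 members, 16 windows were read. Pmaip1 was left out, so the member counts below say nothing of its promoter. The FOXO core TGTTTAC, on either strand, was found in 2 of these 16 windows, 1 each of Bcl2l11 and Bbc3, and in 3.65% of all 32851 windows. The p53 half-site was found in 2 of the 16 windows, 1 each of Bmf and Bax (8.36% of all windows). The SP1 box GGGCGG was found in 10 of the 16, from 7 genes (35.7% of all windows). The Bcl2 window held 7 of these matches, none of which overlap, and is 76% G and C. The E-box CACGTG was found in 2 windows (7.15% of all) and TGACG in 4 (20.8% of all). The FOXO match in Bcl2l11 lies in the 250 bases before its start, shown here on the plus strand with the match in capitals, and for Bbc3 the match is shown with 10 bases on each side.
Bcl2l11, chr2:128125788-128126037: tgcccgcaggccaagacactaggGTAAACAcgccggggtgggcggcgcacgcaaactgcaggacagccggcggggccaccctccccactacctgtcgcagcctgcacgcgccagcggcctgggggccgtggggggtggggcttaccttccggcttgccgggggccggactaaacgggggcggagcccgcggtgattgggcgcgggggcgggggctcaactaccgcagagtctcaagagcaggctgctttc
Bbc3, chr7:16310084-16310110: ctggcgggttTGTTTACaaacaatggg
The match in Bcl2l11 reads on the minus strand and starts at position -227, and that in Bbc3 starts at position -167 from one of its 3 listed starts. A match in these letters is a description and not evidence of binding. Of the factors themselves, Foxo1 was lower in both diets (-0.43 and -0.61, adjusted p = 0.0093 and 0.0026) and Foxo3 was not tested. The UDCA call of Foxo1 was lost with arrays centred on the median (-0.14, adjusted p = 0.87) and with slide as a fixed block (-0.31, adjusted p = 0.19). Its CA call was not tried in the other settings. The dimmer Foxo1 probe, A_52_P453884, was also called lower in both diets (-0.68 and -0.65, adjusted p = 5.2e-05 and 0.00031). The 2 tested probes of Trp53, named after its values were seen, disagreed: the brighter, A_52_P781398, had -0.07 and -0.15 and was not called, while A_52_P491849 was called higher in CA (0.72, adjusted p = 0.00018) and in the difference (0.54, adjusted p = 0.037).

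Of 57 other apoptosis genes on the lists, 49 had a tested probe, and each is counted by its brightest one. For 20 of them several probes were tested, and these did not all give the same call in CA for 9 genes, in UDCA for 5 and in the difference for 8. In CA 20 were called higher and 9 lower, beside 60.3% of all genes in either direction (37.8% higher and 22.4% lower). In UDCA 13 were higher and 2 lower, beside 26% (17.2% and 8.79%), and in the difference 7 were higher and 3 lower, beside 27.7% (18.8% and 8.87%). Their median ratio was 0.18 in CA, 0.06 in UDCA and 0.11 for the difference, against 0.10, 0.04 and 0.08 over all genes, so that these shares and medians lay near those of all genes.

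The anti-apoptotic relatives held the highest value. Bcl2a1b, a guardian of blood cells, had ratios of 3.65 ± 0.29 in CA and 1.91 ± 0.26 in UDCA, both called, with a difference of 1.73. Bcl2a1c had 1.79 and 0.86. The Bcl2a1 genes are near-identical copies, so that their probes may not tell them apart. Bcl2l2 had -0.33 in CA (adjusted p = 0.023), a value that turned to 0.0045 with arrays centred on the median. The effector relative Bok was higher in both diets (2.02 and 1.36), and higher in CA by 0.66 ± 0.14 (adjusted p = 0.0030). Of 7 tested BH3-only and related genes, by their brightest probe, Bcl2l14 was higher in CA (0.85), Bad (-0.66) and Bnip3 (-1.05) were lower, and 0 of 7 were called in UDCA or in the difference by limma, where 2 and 4 had an unadjusted p under 0.05. The dimmer Bnip3l probe A_52_P13612 was called lower in CA (-0.57) and in UDCA (-0.33, adjusted p = 0.045).

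Downstream of the mitochondria, 3 of 7 genes of the apoptosome and caspases were higher in CA: Casp2 (1.97), the scaffold Apaf1 (1.49) and Casp6 (0.65). Casp2 and Apaf1 were also higher in UDCA (0.80 and 0.60) and higher in CA than in UDCA (1.17 and 0.89). The dimmer Apaf1 probe was called in CA at 0.47 and in neither of the other comparisons. Of 8 released mitochondrial factors and channel genes, Vdac2 (0.52) and Htra2 (0.49) were higher in CA, and Aifm1 (-0.34) and Endog (-0.97) were lower. In UDCA, Diablo was higher (0.32, adjusted p = 0.019) and Endog lower (-0.43, adjusted p = 0.020), and each of these calls was lost in 7 of 23 other settings. The dimmer Aifm1 probe was lower in CA by 0.73 and called in the difference (-0.87, adjusted p = 0.0022), at which the brighter was not (-0.45, adjusted p = 0.052). Vdac2 was higher in CA than in UDCA by 0.70, and Endog had a difference of -0.53. With arrays centred on the median none of the calls at the brightest probes of Vdac2, Htra2, Aifm1, Endog and Diablo was kept, and the Endog difference was called in 12 of 24 other settings.

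Of 4 tested inhibitors of apoptosis, 3 were higher in CA. Birc3, which ubiquitinates proteins of the tumour necrosis factor receptor complex, had 1.96 ± 0.12 in CA and -0.02 ± 0.12 in UDCA, with a difference of 1.98 (adjusted p = 6.7e-06), at its brighter probe. The other, A_52_P434055, was also called in CA, at 0.53, and its difference of 0.48 was not called (adjusted p = 0.0503). Birc2, its close relative, had 1.53 and 0.28, with a called difference of 1.24. Birc5, which also acts in cell division, had 2.40 and 2.16. Of 8 tested death receptor genes, by their brightest probe, Tnfrsf1a was higher in both diets (0.68 and 0.69), and Tnfsf10 was higher (0.44) and Ripk1 lower (-0.37) in CA. Fas was called in UDCA (0.64) and not in CA (0.17, adjusted p = 0.20), with a difference of -0.47 (adjusted p = 0.036) that was called in 11 of 24 other settings. Tnfrsf10b was called in UDCA (0.39). Cflar, which blocks caspase 8, was not called in CA at its brightest probe (-0.11) but was lower in CA at the other 4 of its 5 tested probes (-0.96 to -0.51), with called differences at A_51_P135491 (-0.53, adjusted p = 0.016) and A_52_P192071 (-0.47, adjusted p = 0.027). With arrays centred on the median the calls of Tnfrsf1a, Tnfsf10, Ripk1, Fas and Tnfrsf10b named here were lost. Of 11 tested upstream regulators, 6 were called higher and 3 lower in CA, and 3 higher and 1 lower in UDCA. Jun (2.17 and 1.58), Cdkn1a (1.84 and 2.23) and Dynll1 (1.16 and 1.16), the dynein light chain that holds BIM, were higher in both diets. The 3 lower in CA were Ddit3 (-0.57), Foxo1 (-0.43) and Usp9x (-0.38). The 2 tested Mdm2 probes had opposite signs in CA. The brighter, A_52_P469842, was higher (0.96), with a difference between the diets that was not called (0.64, adjusted p = 0.10), and A_51_P201346 was lower (-0.48, adjusted p = 0.0058), with a called difference of -0.55 (adjusted p = 0.042). By the brightest probe, the difference was called for Usp9x (-0.43, adjusted p = 0.028), in 14 of 24 other settings too, and at a dimmer probe it was called for Dynll2 (-0.45, adjusted p = 0.045).

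Among these other genes, arrays centred on the median also ended the calls of the difference for Casp2, Apaf1, Birc2 and Bok and the CA calls of Bad, Bnip3 and Casp6. With arrays scaled to one spread the Bok difference was 0.22 and that of Bcl2a1b 0.95, neither called. Without UDCA array 6 the UDCA ratio of Bcl2a1c was 0.44, not called. Processed signals gave ratios further from 0 by over 1.5 times, with the call kept, for Bcl2a1b (3.63) and Cdkn1a (3.53) in UDCA, Bcl2a1c in CA (4.08) and UDCA (2.51), Bcl2l14 (2.19), Bad (-1.70), Tnfsf10 (1.33) and Ripk1 (-0.62) in CA, and Tnfrsf10b (1.35) and Apaf1 (1.24) in UDCA.

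**Figure D5:**
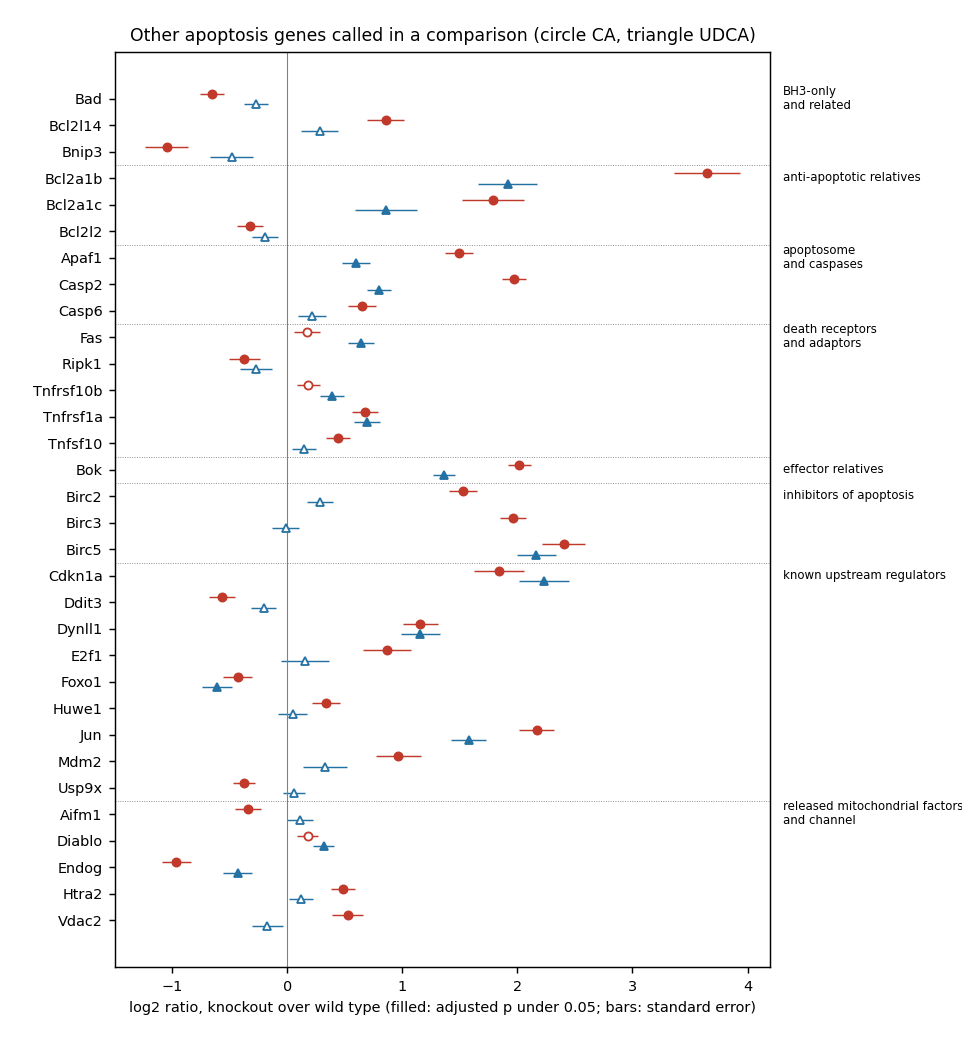
Log2 ratio of knockout over wild type (x axis) of the 32 other apoptosis genes called in at least 1 comparison, each at its brightest probe, by list, CA circles and UDCA triangles, filled where the adjusted p was under 0.05, bars standard errors. Birc3 and Birc2 are filled in CA alone, and Cdkn1a, Jun and Dynll1 in both diets.

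Over the 12 arrays the genes whose ratios were most like those of the distal Bmf probe were Mapk7 (Pearson r = 0.98), Pycard (0.98), Fmnl3 (0.97), Pkp3 (0.97) and Snx20 (0.97). These genes shared the pattern over arrays, and on CA arrays also the sign, being higher in the knockout. On UDCA arrays, where distal Bmf was lower in the knockout, they were higher, apart from a Pkp3 value of -0.089. Mapk7, for example, had ratios from 1.13 to 1.85 on CA arrays and from 0.43 to 1.06 on UDCA arrays. For the 10-spot Bcl2l1 probe they were Tbc1d2b (0.95), Map3k3 (0.94), Fbxo2 (0.93), Rnf166 (0.92) and Abl1 (0.92). The points share arrays, dyes and slides, the genes were chosen for the likeness, and no test was made.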

How the data were processed

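Per the file headers, the array images were read with Feature Extraction software into mean spot intensity and median local background intensity in both dyes, with no normalization, plus processed signals and, from these, a log10 ratio of the red to the green dye. The deposited series table holds log2 ratios, with the normalization not stated in the sources used here; its CA columns ran opposite to knockout over wild type and were turned. Intensities were corrected with normexp (offset 50) and loess within arrays using limma 3.58.1 under R 4.3.3 (data.table version 1.17.8). Spots of a probe were averaged, values marked as outliers by the scanner software were set to missing (0.937% of values of kept probes), and probes well above background on at least 5 of 6 arrays of an RNA in either diet were tested. Levels are log2 intensities after loess and Aquantile. One limma fit over all 12 arrays, with a dye term, gave both comparisons and their difference, which share the spread; p-values were adjusted by Benjamini-Hochberg over all 21693 probes. Folds of probes not well above background in 1 group are lower bounds against the higher of the probe's own signal and the lowest signal well above background. The number of arrays limits the precision, and 1 array per diet repeats a liver, so p-values are somewhat too small. The scripts were tested on simulated data. The members, lists and tests were chosen with earlier results of these data known. Every member probe was named; of the other lists, up to 4 called genes per list and comparison with the largest change, each gene by its brightest tested probe; and 5 genes most like Bmf and Bcl2l1. Residuals of arrays with the same replicate number correlated from -0.57 to 0.13 between the diets, so the numbers do not pair samples.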

Additional observations from a re-analysis of the deposited data

Results flagged for a closer look

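The 7 member probes below are listed because their response differed between the diets by the test of the difference itself. The ratio of knockout over wild type was higher in CA than in UDCA by 2.89 for Bmf A_52_P384394, by 1.82 for Pmaip1 A_51_P477121, by 1.11 for Bcl2l11 A_52_P158527 and by 0.67 for Bbc3 A_51_P248122. For Bcl2 it was higher by 1.41 at A_52_P534870, by 0.80 at A_51_P380013 and by 0.66 at A_52_P438280. At the last of these the wild-type RNA was not well above background, and the probe passed the filter through the CA-fed knockout RNA alone. No array stood apart from the others of its diet in any of the 34 sets of values of a tested probe in a diet, by Dixon's criterion.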

How the results depend on the processing

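Of 76 called results of members and named genes, 36 kept their direction and their call in every setting tried. The count of called members moved by over 1.5 times in 3 cases: the difference between the diets gave 3 with arrays centred on the median and 4 with slide as a fixed block, against 7, and UDCA gave 4 without UDCA array 3. Leaving out 1 array in turn gave 11 to 14 called members in CA, 4 to 7 in UDCA and 6 to 7 in the difference. Centring moved the median of all probes to 0.23 in CA, 0.29 in UDCA and -0.07 in the difference, and the calls over all probes fell to 6141, 1978 and 816, from 12921, 5093 and 5846. Slide as a fixed block left 1978 calls in the difference. The replicate number as a block gave 6 called members in the difference, losing Bbc3 (adjusted p = 0.070). The numbers do not pair the samples.

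Signs that turned were of uncalled values, apart from Bid (0.0498) and Bcl2l2 (0.00447) in CA with arrays centred on the median. In that setting the differences turned for Mcl1 A_51_P238786 (-0.0396), Bax (-0.0456), proximal Bmf (-0.163) and Bcl2l1 A_52_P510877 (0.0665), the CA ratio for Bcl2l1 A_51_P299454 (-0.100), and the UDCA ratios for Bcl2l11 (0.168), Bcl2l1 A_52_P510877 (-0.00239) and Bid (0.227). With processed signals the differences turned for Bax (-0.0953) and Bcl2l1 A_52_P510877 (0.0873), and the ratios for Bcl2l1 A_51_P299454 (-0.344 in CA, -0.213 in UDCA), A_52_P148861 (-0.00898) and A_52_P510877 (-0.0637) in UDCA. With the series table they turned for Bax (-0.0686), Bcl2l1 A_52_P510877 (0.0743, and -0.0363 in UDCA) and A_51_P299454 (-0.113 in CA, -0.00817 in UDCA). Without background correction they turned for Bcl2l1 A_52_P510877 (0.128, and -0.0365 in UDCA), and with arrays scaled to one spread for Bax (-0.112) and Bcl2l1 A_51_P299454 (-0.0131 in CA). With slide as a fixed block they turned for Bax (-0.0672), proximal Bmf (-0.145), Bak1 A_52_P225207 (-0.0138 in UDCA) and, in CA, Bcl2l1 A_51_P299454 (-0.233) and A_52_P510877 (-0.0698), and with slide as a random block for A_51_P299454 (-0.00757). Leaving out 1 array in turn, the values with both signs were those of Bcl2l1 A_51_P299454 in CA (-0.0778 to 0.148) and the difference (-0.175 to 0.0805), A_52_P510877 in CA (-0.0451 to 0.218) and the difference (-0.174 to 0.0891), A_52_P148861 in UDCA (-0.00698 to 0.143), the Bax difference (-0.00932 to 0.121), Bak1 A_52_P225207 in UDCA (-0.0136 to 0.0871) and Bcl2 A_52_P438280 in UDCA (-0.0131 to 0.184). The causes were not tested.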
